A study of Homo sapiens with 4 samples.

Results

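The genes of the cytosolic ribosomal proteins were followed through every probe set that reads them on the expression arrays of U937-AE and U937-Mt cells. A probe set is a group of short oligonucleotides on the array that together give 1 signal for a transcript. Members were the probe sets whose annotated gene symbol is RPL, RPS or RPLP followed by a number and, in some genes, by the letter A, X or L. There were 181 such probe sets among 54613 on the array other than controls, and they carried 71 of the 21357 gene symbols read by the array. Of these probe sets, 117 have 1 symbol and stand for 56 genes. The other 64 have several symbols, in 49 cases a ribosomal gene with small RNAs only, and are given here by probe set number without a gene name.

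U937 cells come from a human leukemia with monocytic features. U937-AE is a single clone stably transfected with HA-tagged AML1/ETO, the fusion protein of the 8;21 translocation, in the plasmid pSG-MtNEO, where the mouse metallothionein promoter drives it. U937-Mt is a bulk population transfected with the same plasmid without an insert. Both received 100 µM ZnSO4, which switches the promoter on, for 8 hours, so zinc is common to them, and a difference between clone and bulk population cannot be told apart from one of the fusion protein. Equal amounts of total RNA from 3 extractions per cell line were mixed, and 2 Affymetrix arrays (HG-U133 Plus 2.0) were hybridized with each pool. The labels number these copies as replicates, but the methods give them as copies of 1 pool, so every range over arrays covers hybridization error only and no p-value is given.

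The ribosome is built from a small subunit, which holds the mRNA, and a large subunit, which joins amino acids and carries a mobile stalk that recruits translation factors. Its proteins (RPS in the small, RPL in the large subunit, RPLP in the stalk) are made in nearly equal amounts and are among the most abundant transcripts of a dividing cell. Most of their mRNAs begin with a terminal oligopyrimidine (TOP) tract, a C followed by a run of C and T, through which their translation is adjusted to nutrients and growth signals.

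This start can be seen in the genome. The windows below are RefSeq promoter sequence of the build GRCh38.p14, on the strand of the gene, with 15 bases before the annotated start and 15 from it on, and capitals mark the C and T run that opens with a C within 5 bases of the start. They are shown for the genes with a called probe set, and for RPS27 beside its paralog RPS27L.
RPL14, chr3:40457324-40457353, plus strand: gggcgggtcttCTTCCTTCTCgcctaacgc
RPL27A, chr11:8682777-8682806, plus strand: ttggcgaaggCCTTCCTTTTTCgtctgggc
RPL36, chr19:5690280-5690309, plus strand: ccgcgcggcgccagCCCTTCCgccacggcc
RPL37A, chr2:216498829-216498858, plus strand: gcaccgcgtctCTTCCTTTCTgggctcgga
RPL38, chr17:74203663-74203692, plus strand: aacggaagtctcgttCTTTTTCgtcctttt
RPLP2, chr11:809952-809981, plus strand: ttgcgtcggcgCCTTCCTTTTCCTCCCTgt
RPS10, chr6:34426055-34426084, minus strand: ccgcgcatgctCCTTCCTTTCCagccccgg
RPS27, chr1:153990747-153990776, plus strand: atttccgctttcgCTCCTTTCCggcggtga
RPS27L, chr15:63157463-63157492, minus strand: aagttgatgccgagcgcagatcgcttgcag
RPS27L is the only one of these without a run of at least 6 bases.

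Promoters (250 bases before to 50 after the start) were matched for 59 of the 71 ribosomal symbols. A run of this kind was found at the start of 48 of their 70 promoters (68.6%), against 11.1% of all 35116 promoters in the table. Counted by gene, 48 of 59 genes (81.4%) had it in at least 1 promoter, against 13.7% of all genes. Of the 7 genes with a probe set called higher, 6 had it. The AML1 motif, read as TGTGGT or TGCGGT on either strand, stood in 19 of the 70 promoters (27.1%), against 19.6% of all promoters. These matches are a description of letters, and binding was not analysed here.

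RUNX1T1, the gene of ETO, checks the labels, and one of its probe sets read 1362 and 1299 in U937-AE but only 8.6 and 7.6 in U937-Mt. All 6 myelomonocytic marker genes with a probe set of 1 symbol were measured, and none of the 4 T cell markers was. Of the defining markers of other cells, 2 of 3 B cell, 1 of 2 erythroid, 2 of 3 fibroblast and 0 of 3 epithelial genes were measured. The correlation of log2 signals was 0.935 between the U937-AE copies, 0.919 between the U937-Mt copies and 0.910 to 0.916 between cell lines. In pooled RNA of whole cultures, fewer cells with a transcript and less of it per cell cannot be told apart.

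Signals below the median of an array, its floor, were raised to that median before log2 was taken. The floors were 119.5 and 129.7 in U937-AE compared with 146.8 and 153.6 in U937-Mt, so at the floor of every array a probe set shows -0.27 on the log2 scale. A probe set was called when each of the 2 U937-AE arrays differed by more than 1.5-fold from each of the 2 U937-Mt arrays, always in the same direction, which makes 4 comparisons. It counts as measured when its mean log2 signal reached the mean floor in at least 1 pool, which held for 170 of the 181 ribosomal protein probe sets and for 28882 of all 54613.

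On the deposited scaling most ribosomal protein signals were slightly lower in U937-AE, by less than the calling threshold, while a few dim probe sets were far higher. The small shift depended on the scaling, while the 9 calls were also made under each of the 3 other scalings tried. Of the 170 measured probe sets, 8 (4.71%) were called higher in U937-AE, against 2.45% of all measured probe sets, and 1 (0.588%) was called lower, against 5.18% of all. The remaining 161 were not called. On the deposited signals, both U937-AE arrays lay below both U937-Mt arrays for 124 probe sets (72.9%), against 34.5% of all measured probe sets, and above them for 20 (11.8%), against 25.8%. The median log2 difference (U937-AE minus U937-Mt) was -0.37, with -0.51 to -0.20 over the 4 comparisons of arrays, whereas that of all measured probe sets was -0.09. The median of the ribosomal protein probe sets was -0.0043 with quantile normalization, -0.10 with arrays set to the same median and -0.027 with arrays set to the same spike-in signal. Its distance to the median of all measured probe sets, -0.28 here and with the last 2 scalings, was -0.016 with quantile normalization. Single probe sets ran between -1.43 and 2.42.

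The 2 kinds of probe set parted by brightness. After the values were seen, a mean signal of 16384 (14 on the log2 scale) was chosen to separate them, and 115 ribosomal protein probe sets reached it. None of these 115 was called in either direction, against 0% called higher and 0.56% called lower of all 357 probe sets this bright. Both U937-AE arrays were below both U937-Mt arrays for 113 of them (98.3%), against 79% of the 357, and above for 0, against 3.92%. The 357 include these 115. At 14.5 or more on the log2 scale both were lower for 98.1% of 104 ribosomal protein probe sets, against 87.1% of 140 others. Between 14 and 14.5 the share was 100% of 11, against 46.1% of 102 others. Their median signals were 27252 and 30143 in U937-AE compared with 39345 and 35501 in U937-Mt. The median log2 difference was -0.40 (-0.57 to -0.24 over the 4 comparisons), which is 1.32-fold lower in U937-AE, and single values lay between -0.69 and -0.10. The 55 dimmer probe sets had a median of 0.05, and all 9 calls were among them, so 8 (14.5%) were called higher and 1 (1.82%) lower, against 2.48% and 5.24% of all measured probe sets under that signal. Of the 55, 11 (20%) had both U937-AE arrays lower, against 33.9%, 20 (36.4%) had both higher, against 26.1%, and 24 overlapped. The 20, which are also the 20 of all 170, include RPS14 241241_at, RPS27 236621_at, RPL18 214335_at and 223707_at with several symbols. These were under the floor on both U937-Mt arrays and counted as measured only through U937-AE, which set their direction. Below 16384 the share with both higher rose with signal. Between 9 and 11 on the log2 scale it was 36.4%, against 32.9% of other probe sets. Between 11 and 14 it was 57.1%, against 49.5%.

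**Figure D1:**
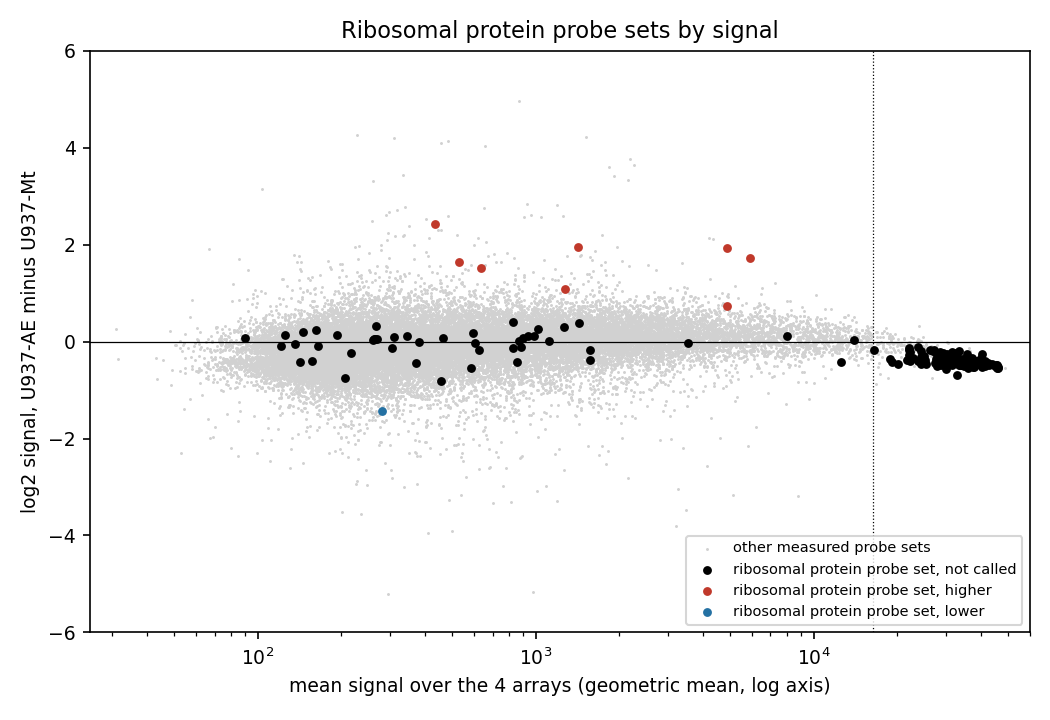
Log2 difference of signal (U937-AE minus U937-Mt, vertical axis) against the mean signal over the 4 arrays (log axis) for the 170 measured ribosomal protein probe sets and, in grey, all other measured probe sets; the dotted line is a signal of 16384. The bright ribosomal protein probe sets form a band between -0.69 and -0.10, which lies nearer 0 with other scalings of the arrays, and the 8 called higher and 1 called lower are all to the left of the line.

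The small shift of the bright probe sets had a like size in both subunits and also appeared outside the ribosomal proteins. The median was -0.39 for 38 bright probe sets of large subunit genes and -0.40 for 30 of small subunit genes. Among other bright probe sets, 169 of 242 (69.8%) also had both U937-AE arrays lower, with a median of -0.24. At the highest signals (14.5 or more on the log2 scale) the median was -0.41 for 104 ribosomal protein probe sets and -0.35 for 140 others, while between 14 and 14.5 it was -0.34 for 11 ribosomal protein probe sets and -0.07 for 102 others. Array controls for GAPDH, a glycolytic enzyme, differed by -0.40 at the 3′ end, -0.40 in the middle and -0.36 at the 5′ end of its transcript, and those for beta-actin by -0.32, -0.30 and -0.16. The hybridization spike-ins, bacterial and phage transcripts added to each sample in known amounts, had a median of -0.32 over the 4 bright ones and of -0.36 over the 14 dimmer ones, of which 10 were lower on both U937-AE arrays. The highest signal of any probe set was 36445 and 44424 on the U937-AE arrays, against 62176 and 55972 on the U937-Mt arrays. The part of these signal differences in the ribosomal protein values was not tested.

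Copies of 1 pool also differed among bright probe sets. The first U937-AE array was the lowest of the 4 for 111 of the 115 bright ribosomal protein probe sets, and the first U937-Mt array was the highest for 111. The median log2 difference between copies was 0.18 within U937-AE (second minus first) and 0.15 within U937-Mt (first minus second). The values of the 115 lay nearer 0 with other scalings of the arrays. With quantile normalization the median of the 115 was -0.04 and 72 were below 0, with arrays set to the same median it was -0.13 with 94 below 0, and with arrays set to the same spike-in signal it was -0.06 with 86 below 0. These scalings moved the median of all measured probe sets from -0.09 to 0.01, 0.18 and 0.25, so its sign turned while that of the 115 did not. The scalings to a common median and to the spike-ins add 1 constant per array, so they move every probe set alike and leave its distance to the others as it was. Under all 3 scalings 64 of the 115 stayed below 0.

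The brightest ribosomal protein probe sets were 208834_x_at with several symbols, then RPL31 and RPS10. Probe set 208834_x_at gave 34918 and 42317 in U937-AE compared with 58928 and 52802 in U937-Mt (log2 difference -0.54). RPL31 200963_x_at gave 34219 and 42967 in U937-AE compared with 61343 and 49919 in U937-Mt (-0.53). RPS10 211542_x_at gave 35769 and 42045 in U937-AE compared with 56979 and 51148 in U937-Mt (-0.48). In each of the 3 the U937-AE arrays were both below the U937-Mt arrays, though in RPL31 the copies of each pool differed by more than the nearest arrays of the 2 pools did. The lowest of the bright values was that of RPL23A 203012_x_at, -0.69 (-0.89 to -0.50), a protein at the exit of the peptide tunnel. On the deposited scaling this probe set passed 1.5-fold with the mean of both arrays and with limma. With a common median and with the spike-ins its difference lay nearer 0 and under 1.5-fold. The highest was that of RPS25 200091_s_at, -0.10 (-0.16 to -0.05), a small subunit protein, which turned to 0.08, 0.17 and 0.24 with the 3 scalings. Only RPL34 200026_at (-0.20) and 200937_s_at with several symbols (-0.18) overlapped between the cell lines, and both were above 0 with each of the 3 scalings.

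The 8 probe sets called higher stood for 7 genes, and 7 of the 8 carry the suffix _s_at or _x_at, which Affymetrix gives to probe sets with probes shared by several transcripts or able to bind unrelated ones. Most of the 69 bright ribosomal protein probe sets with 1 symbol, of which 0 were called, carry these suffixes too. Among those called higher, RPL14, a large subunit protein, had the highest value. Probe set 219138_at gave 1017 and 1035 in U937-AE compared with 137 and 250 in U937-Mt, with the first U937-Mt array under its floor of 146.8, and the log2 difference was 2.42 (2.02 to 2.82). The other RPL14 probe sets were far brighter and ran the other way. Probe set 200074_s_at gave 19705 and 20368 in U937-AE compared with 24785 and 23710 in U937-Mt (-0.28), although this one turned to 0.07 with the spike-in scaling. Probe set 213588_x_at gave 17144 and 17251 in U937-AE compared with 27104 and 20776 in U937-Mt (-0.46).

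RPL38, a small protein of the large subunit known in mice for its part in translating Hox mRNAs, had 2 probe sets called higher. Probe set 202028_s_at gave 9991 and 9195 in U937-AE compared with 2434 and 2584 in U937-Mt (1.93, 1.83 to 2.04). Probe set 221943_x_at gave 10343 and 11174 in U937-AE compared with 3259 and 3237 in U937-Mt (1.73, 1.67 to 1.79). Both had the U937-AE copies close together and far above U937-Mt. The remaining RPL38 probe set, 202029_x_at, gave 27995 and 32923 in U937-AE compared with 41612 and 36942 in U937-Mt (-0.37).

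RPL27A was called higher on its only probe set of 1 symbol, and RPLP2 on its only measured one of that kind. Neither has a bright probe set of 1 symbol. Probe sets with several symbols were not assigned to genes, so bright ones that also read RPL27A or RPLP2 would not be seen here. RPL27A 212044_s_at gave 2661 and 2938 in U937-AE compared with 832 and 626 in U937-Mt (1.95, 1.68 to 2.23). RPLP2 200908_s_at gave 795 and 1093 in U937-AE compared with 292 and 308 in U937-Mt (1.64, 1.37 to 1.91). RPLP2 is an acidic protein of the stalk, and its other probe set of 1 symbol, 217670_at, was under the floor on all arrays. RPLP1, its partner in the stalk, was not called. Its probe set 200763_s_at gave 31423 and 34137 in U937-AE compared with 45671 and 41576 in U937-Mt (-0.41), and 244191_at was under the floor on all arrays.

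RPS10, a small subunit protein near the entry of the mRNA and a gene of Diamond-Blackfan anemia, had 4 measured probe sets. Of these, 214001_x_at gave 1669 and 2052 in U937-AE compared with 1005 and 757 in U937-Mt, and was called higher (1.09, 0.73 to 1.44). The other 3, among the brightest on the array, had differences between -0.49 and -0.48. RPL37A, a large subunit protein with a zinc finger, showed the smallest called difference. Its probe set 214041_x_at gave 6478 and 6200 in U937-AE compared with 3765 and 3817 in U937-Mt (0.74, 0.70 to 0.78). Probe set 201429_s_at of RPL37A gave 32710 and 40401 in U937-AE compared with 51321 and 47176 in U937-Mt (-0.44), and 213459_at had 0.06.

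RPL36, a large subunit protein, held the only probe set called lower. Probe set 231658_x_at gave 235 and 119 in U937-AE compared with 454 and 483 in U937-Mt, with the second U937-AE array under its floor of 129.7 (-1.43, -1.90 to -0.95). Its bright probe set 219762_s_at gave 20886 and 22620 in U937-AE compared with 28445 and 26110 in U937-Mt (-0.33). Both RPL36 probe sets had lower signals in U937-AE and only the dim one passed 1.5-fold, while the bright one was at -0.14 with quantile normalization and turned to 0.02 with the spike-ins.

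Most ribosomal RNA controls were also higher in U937-AE. The standard Affymetrix labeling starts from poly(A) tails, which rRNA lacks. The 3 control probe sets of 18S rRNA were 5.54-fold to 7.34-fold higher in U937-AE, and 2 of the 3 of 28S rRNA were 4.06-fold and 6.31-fold higher, with the remaining one under the floor on all 4 arrays. The middle 28S control gave 8810 and 9524 in U937-AE compared with 2373 and 2142 in U937-Mt. Their part in the ribosomal protein values was not tested.

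**Figure D2:**
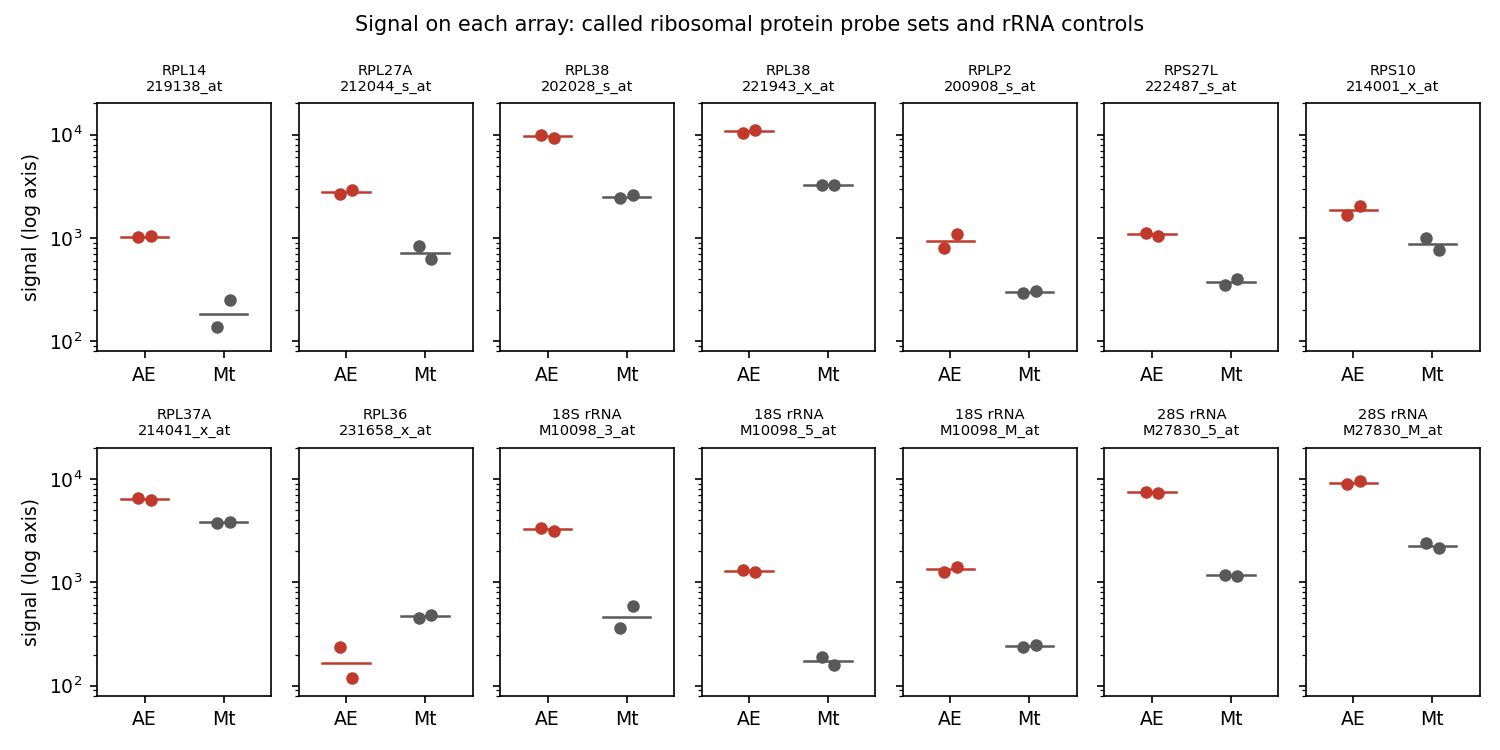
Signal on each array (log axis) for the 9 called ribosomal protein probe sets and the 5 rRNA controls that passed the same rule, with AE for U937-AE, Mt for U937-Mt, 1 point per array copy and a line at their geometric mean. In all panels but RPL36 both U937-AE points lie above both U937-Mt points.

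Probe sets of 1 gene often disagreed. In 30 genes at least 2 probe sets with 1 symbol were measured, and in 10 of them the highest and lowest log2 differences were more than 1.5-fold apart, with ranges over the 4 comparisons that did not overlap in any of the 10. The highest probe set was called higher in 5 of the 10, and the lowest was a bright one in 8. The gap was 2.88 (7.38-fold) in RPL14, 2.30 (4.94-fold) in RPL38, 1.58 (2.99-fold) in RPS10, 1.45 (2.74-fold) in RPS27L and 1.18 (2.26-fold) in RPL37A. It was 1.10 in RPL36, 0.80 in RPS24, 0.69 in RPL37, 0.64 in RPL31 and 0.62 in RPL7, where the highest probe set, 239493_at, was under the floor on both U937-Mt arrays and counted as measured only through U937-AE. In the other 20 genes all probe sets were within 1.5-fold of each other, down to a gap of 0.03 in RPS4X. Taking the brightest probe set with 1 symbol for each of 54 genes left 2 (3.7%) called higher (RPL27A and RPLP2) and 0 called lower, against 2.45% and 5.18% of all measured probe sets. Both U937-AE arrays were lower for 49 (90.7%), against 34.5% of all measured probe sets. Of the 54, 49 had a signal of 16384 or more, where the share over all probe sets was 79%. The other 53 probe sets of these genes held 6 (11.3%) called higher, against 2.45% of all measured probe sets, 1 (1.89%) called lower, against 5.18%, and 26 (49.1%) with both U937-AE arrays lower, against 34.5%. These 53 mix bright and dim probe sets. Of all 38 ribosomal protein probe sets with 1 symbol under 16384, both U937-AE arrays were lower in 7 (18.4%). The share over all measured probe sets under that signal was 33.9%.

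**Figure D3:**
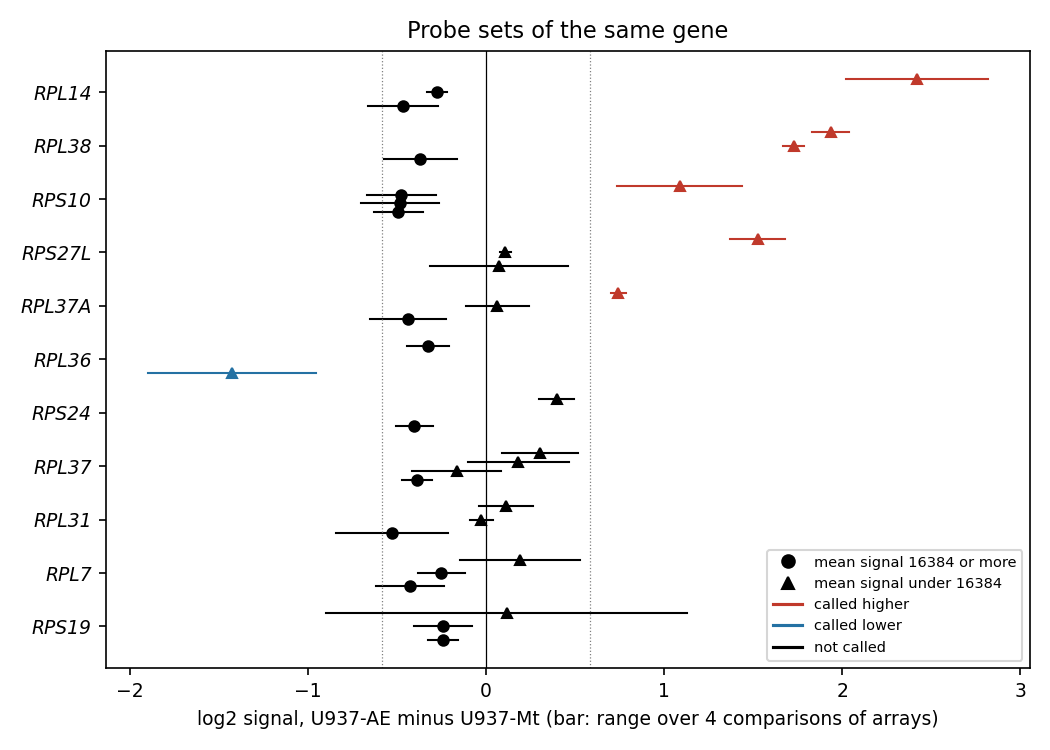
Log2 difference (U937-AE minus U937-Mt) of every measured probe set with 1 symbol in the 10 genes whose probe sets differed by more than 1.5-fold and in RPS19, with a bar over the 4 comparisons of arrays and dotted lines at 1.5-fold. Bright probe sets (circles) lie between -0.53 and -0.24, whereas dim ones (triangles) spread between -1.43 and 2.42; all circles lie higher with other scalings of the arrays.

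RPS19, the gene most often mutated in Diamond-Blackfan anemia and needed to mature the RNA of the small subunit, had 3 probe sets, and none was called. Probe set 213414_s_at gave 28164 and 30956 in U937-AE compared with 35345 and 34536 in U937-Mt (-0.24, -0.33 to -0.16). Probe set 202649_x_at gave 24081 and 26637 in U937-AE compared with 31894 and 28118 in U937-Mt (-0.24, -0.41 to -0.08). The dim RPS19 242451_x_at gave 403 and 316 in U937-AE compared with 589 and 185 in U937-Mt. Its copies differed more than the cell lines did, so its difference of 0.11 ran between -0.90 and 1.13 over the 4 comparisons. The bright probe sets of RPS19 had no overlap between cell lines and a smaller difference than the median of bright ribosomal protein probe sets, and the gap to the dim one was 0.36 with overlapping ranges. With quantile normalization the bright values turned to 0.13 and 0.06.

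Other genes tied to failure of red cell production are given next, and none of their probe sets was called. Their bright values lay nearer 0 with quantile normalization, at -0.076 for RPS14, -0.034 for RPL11 and -0.053 for RPS24. RPS14, whose loss on the long arm of chromosome 5 underlies a form of myelodysplasia, had -0.46 on 208645_s_at, and its dim probe sets 214245_at and 241241_at had 0.05 and 0.08. RPL11, which binds MDM2 when ribosome assembly is disturbed, has the single probe set 200010_at, with 27003 and 30506 in U937-AE compared with 37856 and 37976 in U937-Mt (-0.40). RPL35A, a Diamond-Blackfan gene, had -0.57 on 225190_x_at, -0.17 on 213687_s_at (0.10 with a common median and 0.17 with the spike-ins) and -0.42 on 238026_at. The dim RPL35A 215208_x_at (233 and 131 in U937-AE compared with 53.5 and 365 in U937-Mt) could not be read, since its U937-Mt copies lay on either side of both U937-AE arrays. RPS24, also a Diamond-Blackfan gene, had -0.40 on 200061_s_at. Its dim probe set 1555878_at gave 993 and 914 in U937-AE compared with 704 and 743 in U937-Mt (0.40, 0.30 to 0.50), higher on both arrays but under 1.5-fold, and it passed the call (0.74) only with arrays set to the same spike-in signal.

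Some paralogs of ribosomal protein genes have a restricted or inducible use. RPS27L, which p53 induces, had 1 of 3 probe sets called higher, and its parent RPS27 had none. RPS27L 222487_s_at gave 1127 and 1040 in U937-AE compared with 352 and 402 in U937-Mt (1.53, 1.37 to 1.68). The brightest RPS27L probe set, 218007_s_at, gave 8182 and 8535 in U937-AE compared with 7753 and 7763 in U937-Mt (0.11), so U937-AE was higher on both arrays by a small margin. RPS27 200741_s_at gave 25754 and 28172 in U937-AE compared with 37266 and 32531 in U937-Mt (-0.37). RPL39L, known from testis, gave 997 and 948 in U937-AE compared with 989 and 822 in U937-Mt (0.11), with overlap, while RPL39, whose protein lines the exit tunnel, had -0.40. RPL10L, also known from testis, gave 364 and 281 in U937-AE, against 433 on both U937-Mt arrays (-0.44, -0.62 to -0.25). RPL3L, the form of striated muscle, was under the floor on all 4 arrays, and RPL3, which sits beside the peptidyl transferase center, had -0.49.

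The dimmest measured probe sets lay next to the floor, where little can be read. RPS14 241241_at gave 115 and 210 in U937-AE compared with 36 and 74 in U937-Mt, with both U937-Mt arrays and 1 U937-AE array under the floor. RPS27 236621_at gave 143 and 137 in U937-AE compared with 101 and 107 in U937-Mt, and RPL18 214335_at 185 and 148 in U937-AE compared with 68 and 134 in U937-Mt. All 3 were under the floor on both U937-Mt arrays and counted as measured only through U937-AE, so that they were higher there was set by the filter. Among the 64 probe sets with several symbols, 63 were measured, with a median of -0.39. By this rule 0 were called, against 2.45% called higher and 5.18% lower of all measured probe sets. Of the 63, 46 reached a signal of 16384, where 0% and 0.56% of all probe sets were called. The lowest of the 63 was 216823_at, with 343 and 347 in U937-AE compared with 518 and 716 in U937-Mt (-0.82). The highest was 221989_at, with 1603 and 1683 in U937-AE compared with 1265 and 1237 in U937-Mt (0.39). Probe set 221989_at was called higher with a common median (0.66) and with the spike-ins (0.74).

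Genes that work with the ribosome were counted in the same way, and only the translation factors among them had several probe sets on both sides of the brightness limit. Of the translation factors whose mRNAs also begin with a TOP tract, 45 probe sets were measured. The 18 bright ones all had U937-AE lower, against 79% of all bright probe sets, with a median of -0.40 and 0 called, against 0% called higher and 0.56% lower. The 27 dimmer ones had a median of 0.02 with 2 called higher and 0 lower, against 2.48% and 5.24% of all dimmer probe sets. Mitochondrial ribosomal proteins, which form a separate ribosome and had no bright probe set, had a median of 0.04 over 124 probe sets, with 2 called higher and 0 lower, against 2.45% and 5.18% of all measured probe sets. Genes of ribosome biogenesis, the making of rRNA and the assembly of subunits, had a median of 0.20 over 66 probe sets. Of these, 34 (51.5%) had both U937-AE arrays higher, against 25.8% of all measured probe sets, and 6 (9.09%) had both lower, against 34.5%. The comparison is not matched for signal. Median signals of the 66 ran from 1187 to 1497 over the 4 arrays, against 412 to 461 for all measured probe sets. Of probe sets outside the ribosomal proteins between 9 and 11 on the log2 scale, 32.9% had both higher and 31.8% both lower. Between 11 and 14 the shares were 49.5% and 24.4%. Again 2 of the 66 were called higher and 0 lower, against the same 2.45% and 5.18%. Of 10 probe sets of other ribosomal and ribosome-like genes none was called, against the same shares, and their median was 0.04. The only bright one, FAU 200019_s_at, gave 23215 and 24698 in U937-AE compared with 30240 and 28468 in U937-Mt (-0.29).

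**Figure D4:**
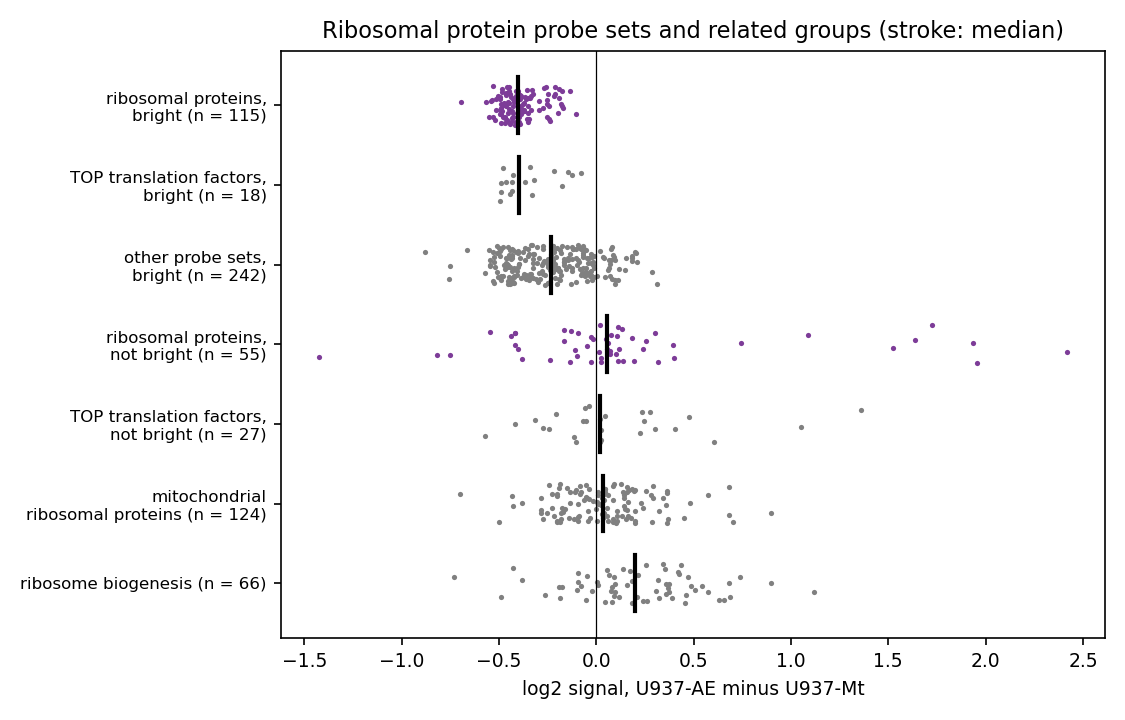
Log2 difference (U937-AE minus U937-Mt) of each measured probe set, 1 point each with random vertical spread, for ribosomal proteins (purple) and related groups (grey), with the median as a black stroke. The groups labeled TOP translation factors also hold other genes whose transcripts begin with a TOP tract. The bright groups center on -0.40, -0.40 and -0.24, of which the ribosomal proteins and the other probe sets lie nearer 0 or above it with other scalings of the arrays, and the dimmer groups on 0.05, 0.02, 0.04 and 0.20.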

How the data were processed

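Pooled RNA of each cell line was measured on 2 array copies, 4 in all. The authors deposited linear signal intensity per probe set from GCOS (no version stated in the labels), which sets mismatch against perfect match probes and then applies global scaling. The mean signal without the lowest and highest 2% was 500.1 on every array. Detection calls were not used here. Of the 54675 probe sets, 62 controls were set aside, and of the others 41091 had 1 symbol, 1801 several and 11721 none in the annotation table. Signals below the 50th percentile of an array were raised to it and log2 was taken. A call required all 4 comparisons above 1.5-fold in 1 direction, over all probe sets other than controls.

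The members, the lists and the rule for named genes were chosen with earlier results of these data known. Named with values were called probe sets and their sister probe sets, RPS19, the 5 widest gaps, paralogs, the 3 brightest and 3 dimmest, stalk proteins and anemia genes. RPL23A, RPL34, RPS25, RPL37, RPL31, RPL7, RPS4X, the genes outside the ribosomal proteins and the probe sets with several symbols were picked after their values were seen. Some items are not analysed here. Promoters came from RefSeq.

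Alternatives were quantile normalization, a common median or spike-in signal, other floors, 2-fold, the mean of both arrays, limma with and without the array number as a replicate block, the methods' t-test, leaving out each array, and subsets of probe sets. The call rule was tested on simulated data. Array numbers did not pair the samples (correlation of deviations 0.046 over all probe sets and 0.062 over ribosomal ones). The number of arrays limits the precision. Python 3.11.15, numpy 2.4.6, scipy 1.17.1, pandas 2.3.3, matplotlib 3.10.9, R 4.3.3 and limma 3.58.1 were used.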

Additional observations from a re-analysis of the deposited data

Results flagged for a closer look

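Signal outside the main measurement was higher in U937-AE than in U937-Mt, the control line, in 5 array control probe sets of ribosomal RNA. The folds were 7.06 (M10098_3), 7.34 (M10098_5) and 5.54 (M10098_M) for the 3 parts of 18S rRNA, and 6.31 (M27830_5) and 4.06 (M27830_M) for 2 parts of 28S rRNA. Each of the 4 comparisons of arrays was above 1.5-fold for all 5.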

How the results depend on the processing

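The 8 probe sets called higher and RPL36 231658_x_at, called lower, were the same probe sets under quantile normalization, a common median and a common spike-in signal, where 0, 1 and 2 more were called higher. Over all probe sets the split of higher and lower calls was 707 and 1496 here, 952 and 1042 with quantile normalization and 2850 and 508 with the spike-ins. The median log2 difference of the ribosomal protein probe sets (-0.37) was -0.0043 with quantile normalization, -0.10 with a common median, -0.027 with the spike-ins and -0.10 without _x_at and _s_at probe sets. Its distance to the median of all measured probe sets (-0.28) was -0.016 with quantile normalization and -0.0087 without _x_at and _s_at probe sets. Without these suffixes 1 probe set (RPL14 219138_at) was called higher, 0 lower, and 0 genes had a gap over 1.5-fold. Fewer probe sets were left, and the part of this in the counts was not tested. The count called lower (1) was 0 with a floor at the 75th percentile, 0 at 2-fold, 4 with the mean of both arrays and 3 with limma. With the replicate block limma called 8 higher and 4 lower, against 1457 and 3570 over all probe sets (1193 and 2494 without the block). The methods' t-test called 6 higher and 0 lower, and 0 and 0 after Benjamini-Hochberg adjustment. Those p-values cover the spread between array copies only.

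Leaving out 1 array at a time, with 2 comparisons left to pass, gave 8 to 9 called higher, 3 to 9 called lower (3 without the first U937-AE array, 9 without the second, 4 without either U937-Mt array), medians of -0.44 to -0.28, distances of -0.37 to -0.19, and 11 to 16 genes with a gap over 1.5-fold (16 without the second U937-Mt array). RPS19 242451_x_at was called higher without the first U937-Mt array (0.95). Of 1184 values of 74 named probe sets under these alternatives, 1116 kept the call or its absence, 32 lost the call and 33 gained it. With a floor at the 75th percentile 3 called values turned (EEF1D 213087_s_at to -0.089, GTPBP4 217631_at to -0.10 and MRPL57 221995_s_at to -0.10), since that floor lies above most of their signals. Including values that were never called, 74 of the 1184 changed sign, 38 of them among the 222 values under the 3 scalings. With 1 pool per cell line, the spread between cultures is not known, and differences under 1.5-fold are of the size that scaling moves.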

Other observations

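Both probe sets called higher in the list of translation factors and other TOP genes belong to EEF1D. It is a subunit of the factor that reloads the elongation factor EEF1A1 with GTP, and its probe sets disagreed as those of RPL14 did. EEF1D 213087_s_at gave 350 and 475 in U937-AE compared with 99.6 and 172 in U937-Mt, with the first U937-Mt array under its floor of 146.8 (log2 difference 1.36), and 214395_x_at gave 631 and 678 in U937-AE compared with 321 and 310 in U937-Mt (1.05). The much brighter EEF1D 203113_s_at and 214394_x_at had -0.11 and 0.03.

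In ribosome biogenesis, LTV1, an assembly factor of the small subunit, and GTPBP4, a GTPase of large subunit assembly, were called higher. LTV1 225748_at gave 2814 and 2460 in U937-AE compared with 1181 and 1246 in U937-Mt (1.12, 0.98 to 1.25), and the dim 239212_at had 0.69 with a range of 0.07 to 1.31. GTPBP4 217631_at gave 453 and 464 in U937-AE compared with 217 and 279 in U937-Mt (0.90), and its brighter probe sets 218238_at and 218239_s_at had 0.66 and 0.58, so all 3 were higher on both U937-AE arrays. NCL, nucleolin, had 0.26 on 200610_s_at, and MYC, a regulator of ribosome genes, had 0.08 on 202431_s_at. Among mitochondrial ribosomal proteins, MRPL14 225201_s_at had 0.70 and MRPL57 221995_s_at 0.90, and both were called higher, while the other 3 probe sets of MRPL57 lay between 0.11 and 0.20.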
